A study of Mus musculus with 2 samples.

Results

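Neutrophils pack their granules in sequence, and the 9 genes described here mark that sequence. They were taken by symbol from the 32285 genes measured: Mpo, Elane and Prtn3 for primary granules, Camp, Ngp, Ltf and Lcn2 for secondary granules, and Mmp8 and Mmp9 for tertiary granules. All 9 were found in both lung sections. S100a8, an abundant cytosolic protein gene of neutrophils of all but the earliest stages, served as the general neutrophil reference, with its partner S100a9 beside it.

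The metastatic section came from the lung of a female Balb/c mouse that had received an injection of 1000000 4T1 cells, a mouse mammary carcinoma line, into the mammary fat pad at 6 to 8 weeks of age and was killed 21 to 23 days later. The control section came from a lung without tumor or treatment, and the labels give no strain, sex or age for that mouse. Each condition was 1 fresh-frozen section of 1 mouse, profiled with Visium, in which every spot captures the RNA of several cells under it. The questions addressed were which granule stages were present in either lung, and how they lay relative to the metastases.

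In the bone marrow, promyelocytes transcribe the primary granule genes, myelocytes and metamyelocytes turn to the secondary ones, and band cells to the tertiary ones. Circulating neutrophils have largely switched off the first 2 programs. Mpo, Elane, Camp and Ngp are thus genes of cells earlier than the neutrophils that usually fill lung capillaries, whereas Mmp8 and Mmp9 are transcribed later. Some of these genes are also used by other cells: Ltf and Lcn2 by epithelium, Prtn3 by cells of the monocyte lineage, and Mmp9 by macrophages and stromal cells.

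The bases just before the start of the genes are shown because the members of a stage were read as 1 group although they are separate loci. In RefSeq on GRCm38.p6, Prtn3 (chr10:79879667-79883174) and Elane (chr10:79886312-79888216) are neighbors with 3137 bases between them, while Mpo lies at chr11:87793784-87804412. Camp (chr9:109847377-109849456), Ngp (chr9:110419808-110423012) and Ltf (chr9:111019292-111042766) are on 1 chromosome, with 570352 bases from the start of Camp to that of Ngp and 599484 from Ngp to Ltf. Capitals mark GAGGAAG, a motif of the kind bound by PU.1, and TTGCNNAA, a motif of the kind bound by C/EBP factors; both strands were searched and none of the matches overlap. Each line runs 5′ to 3′ on the strand of the gene and ends at the base before its start. The windows are chr11:87793534-87793783 for Mpo, chr10:79886162-79886311 for Elane, chr10:79879517-79879666 for Prtn3, chr9:109849457-109849606 (minus strand) for Camp, chr9:110419658-110419807 for Ngp and chr9:111019142-111019291 for Ltf.
Mpo: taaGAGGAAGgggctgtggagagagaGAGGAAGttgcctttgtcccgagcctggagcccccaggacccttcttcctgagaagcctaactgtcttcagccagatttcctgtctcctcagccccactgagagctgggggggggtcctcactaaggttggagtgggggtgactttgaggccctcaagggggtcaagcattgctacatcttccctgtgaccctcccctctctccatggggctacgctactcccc
Elane: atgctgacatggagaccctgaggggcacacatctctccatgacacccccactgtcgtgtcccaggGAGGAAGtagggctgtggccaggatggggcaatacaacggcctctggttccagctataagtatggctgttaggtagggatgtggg
Prtn3: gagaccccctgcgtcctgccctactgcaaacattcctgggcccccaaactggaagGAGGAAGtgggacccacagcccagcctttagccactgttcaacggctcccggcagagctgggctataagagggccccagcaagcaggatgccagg
Camp: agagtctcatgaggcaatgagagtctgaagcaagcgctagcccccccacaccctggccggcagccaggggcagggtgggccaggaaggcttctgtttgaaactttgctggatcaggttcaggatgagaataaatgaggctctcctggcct
Ngp: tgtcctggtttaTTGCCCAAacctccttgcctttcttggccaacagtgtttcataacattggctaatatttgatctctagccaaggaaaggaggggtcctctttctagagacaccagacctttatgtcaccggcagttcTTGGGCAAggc
Ltf: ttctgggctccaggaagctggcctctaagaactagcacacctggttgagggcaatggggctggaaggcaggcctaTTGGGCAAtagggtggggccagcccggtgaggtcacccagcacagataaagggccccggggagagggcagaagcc
Over the 250 bases before the start, GAGGAAG was found in all 3 primary granule genes and also in Lcn2, Mmp8 and S100a8. TTGCNNAA was found in Ngp, Ltf, Lcn2 and Mmp8, so that Lcn2 and Mmp8 held both motifs and the stages were not split by them. Camp held neither. Of the 8 members with a promoter entry, 5 held GAGGAAG and 4 held TTGCNNAA, beside 10.6% and 9.56% of 32851 promoters. These are matches of letters only. They were looked for after the levels were known, and Mmp9 had no entry.

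The control section held 1888 spots with 20329126 counts and the metastatic section 1110 spots with 14657881 counts, with medians of 9643.5 and 11334.5 counts per spot. Levels are summed counts of unique molecules per 10000 counts of all genes (CP10k). Brackets give 95% intervals, exact except for ratios per S100a8 count (log-normal), which cover counting error only: with 1 section per condition and spots that are not replicates, no test between conditions was possible. Fewer cells of a type and less RNA per cell cannot be told apart. Surfactant and alveolar genes were abundant in both sections. The control section also contained heart-type muscle, with 29.3 CP10k of 6 cardiac genes against 0.0689. It also held airway spots rich in Bpifa1, Muc5b and Reg3g, here called secretory airway spots, which the metastatic section largely lacked. The airway gene Scgb1a1 was abundant in both, at 1836 CP10k in the metastatic and 1524 in the control section.

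S100a8 was 8.20 CP10k (8.05 to 8.35) in the metastatic section and 0.788 (0.750 to 0.828) in the control section, a ratio of 10.4 (9.88 to 11.0). S100a9 had a ratio of 9.62 (9.21 to 10.1). Of the 9 members, 7 were at least 2-fold higher in the metastatic section, beside 5.49% of the 16039 genes with at least 10 counts, and 0 were at least 2-fold lower, beside 7.03% of those genes. The median ratio of the members was 3.18, against 0.941 over all those genes. Of the 7, Mpo and Elane were not 2-fold higher without 2 single spots (0.782 and 1.04). Each member had a lower ratio than the reference, and of their intervals only that of Elane reached it.

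**Figure D1:**
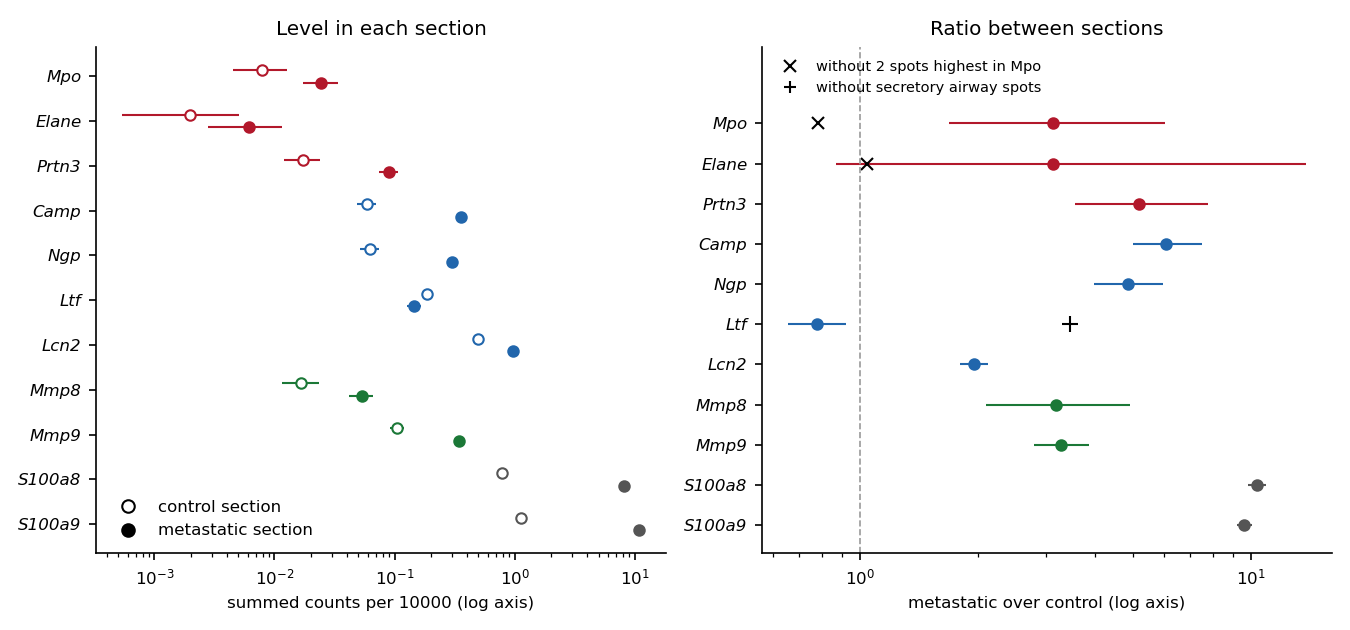
Left, level of each granule gene and of S100a8 and S100a9 in summed counts per 10000 (log axis) in the control section (open) and the metastatic section (filled), with exact 95% counting intervals. Right, metastatic over control ratio (log axis); crosses give Mpo (0.782) and Elane (1.04) without the 2 spots with the most Mpo, and the plus sign Ltf (3.45) without secretory airway spots. Red marks primary, blue secondary and green tertiary granule genes, and the point of each member lies left of that of S100a8 (10.4).

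Mpo (myeloperoxidase) had 36 counts in the metastatic section, or 0.0246 CP10k (0.0172 to 0.0340), and 16 in the control section, or 0.00787 (0.00450 to 0.0128). The ratio was 3.12 (1.69 to 6.02). Elane (neutrophil elastase) had 9 and 4 counts, with the same ratio but an interval of 0.871 to 13.9 that includes equality. These counts were not spread over the lung. A single spot held 17 of the 36 Mpo counts and a second held 10, whereas no control spot had more than 4.

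The spot with 17 Mpo counts also held 4 Elane, 8 Prtn3 and 5 Ctsg counts, and the spot with 10 held 2 Elane, 2 Prtn3 and 3 Ctsg counts. Ctsg, which encodes cathepsin G, is a further primary granule protease gene and was named after its values were seen. The 2 spots were 2691 µm apart and lay 755 and 1153 µm from the nearest tumor core. They made up 0.241% of the counts of the section but 75.0% of Mpo, 66.7% of Elane and 66.7% of Ctsg. Their shares of Prtn3 (7.63%), Camp (0.949%), Ngp (0.901%), S100a8 (0.508%) and Ltf (0.467%) were smaller, though each was above 0.241%. Those of Mmp9 (0.197%) and Lcn2 (0.0706%) were below it, and Mmp8 had 0 counts there. With their neighboring spots, 13 in all, the 2 spots held 39 of the 45 Mpo and Elane counts.

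Without these 2 spots the Mpo ratio between sections was 0.782 (0.305 to 1.88) and that of Elane 1.04 (0.153 to 6.16). The higher Mpo and Elane of the metastatic section therefore rested on 2 places of a single section. In the control section the 16 Mpo counts lay in 12 spots, none of which had an Elane, Prtn3 or Ctsg count. Ctsg had 12 counts in the metastatic and 0 in the control section, at least 5.55-fold higher against a floor of 3 counts, with an exact interval of the ratio from 3.85. Without the 2 spots 4 Ctsg counts remained, at least 1.85-fold higher against the floor, and the interval then began at 0.918 and included equality. Across the early neutrophil list (Ctsg, Ms4a3, Prss57, Fcnb, Cebpe and Gfi1), 3 of 6 genes had 10 counts over both sections, and Ctsg was the 1 whose interval excluded equality.

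Prtn3 (proteinase 3) had a different map. It had 131 counts in the metastatic section, or 0.0894 CP10k (0.0747 to 0.106), and 35 in the control section, or 0.0172 (0.0120 to 0.0239), a ratio of 5.19 (3.55 to 7.77). Without the 2 spots rich in Mpo the ratio was 4.81 (3.28 to 7.22). Prtn3 made up 131 of the 176 primary granule counts, so the ratio of the summed stage, 4.44 (3.26 to 6.12), was mostly that of Prtn3.

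The tumor core was rebuilt from the counts as the cluster of spots with the highest score of cancer minus alveolar genes, clustered without neutrophil genes. It had 153 spots in metastases of 123, 28 and 2 spots. The margin (up to 200 µm from the core) had 106 spots, the intermediate zone (over 200 and up to 500 µm) 197, and the far lung 654. S100a8 was 1.27 CP10k (1.14 to 1.42) in the core, 7.09 in the margin, 9.87 in the intermediate zone and 9.96 (9.74 to 10.2) in the far lung. The core was thus poor in the neutrophil reference, 0.128 times the far lung (0.114 to 0.143).

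Of the 8 members with at least 10 counts in core and far lung together (Elane had 8), Prtn3 was the 1 at least 2-fold higher in the core, beside 23.8% of 14157 genes. Mpo, Camp, Ngp and Ltf were at least 2-fold lower, beside 20.2%. Between margin and far lung, 0 of 8 were at least 2-fold higher, beside 9.36% of 13920 genes, and the same 4 were lower, beside 4.4%. Of these, Mpo had 0 counts in the margin. The intervals of the margin ratio reached 0.673 for Mpo, 0.735 for Ltf and 0.506 for Ngp. A 2-fold difference beyond counting error was thus shown there for Camp alone (0.151 to 0.424). The median ratio of all those genes was 1.20 for core over far lung and 1.21 for margin over far lung.

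**Figure D2:**
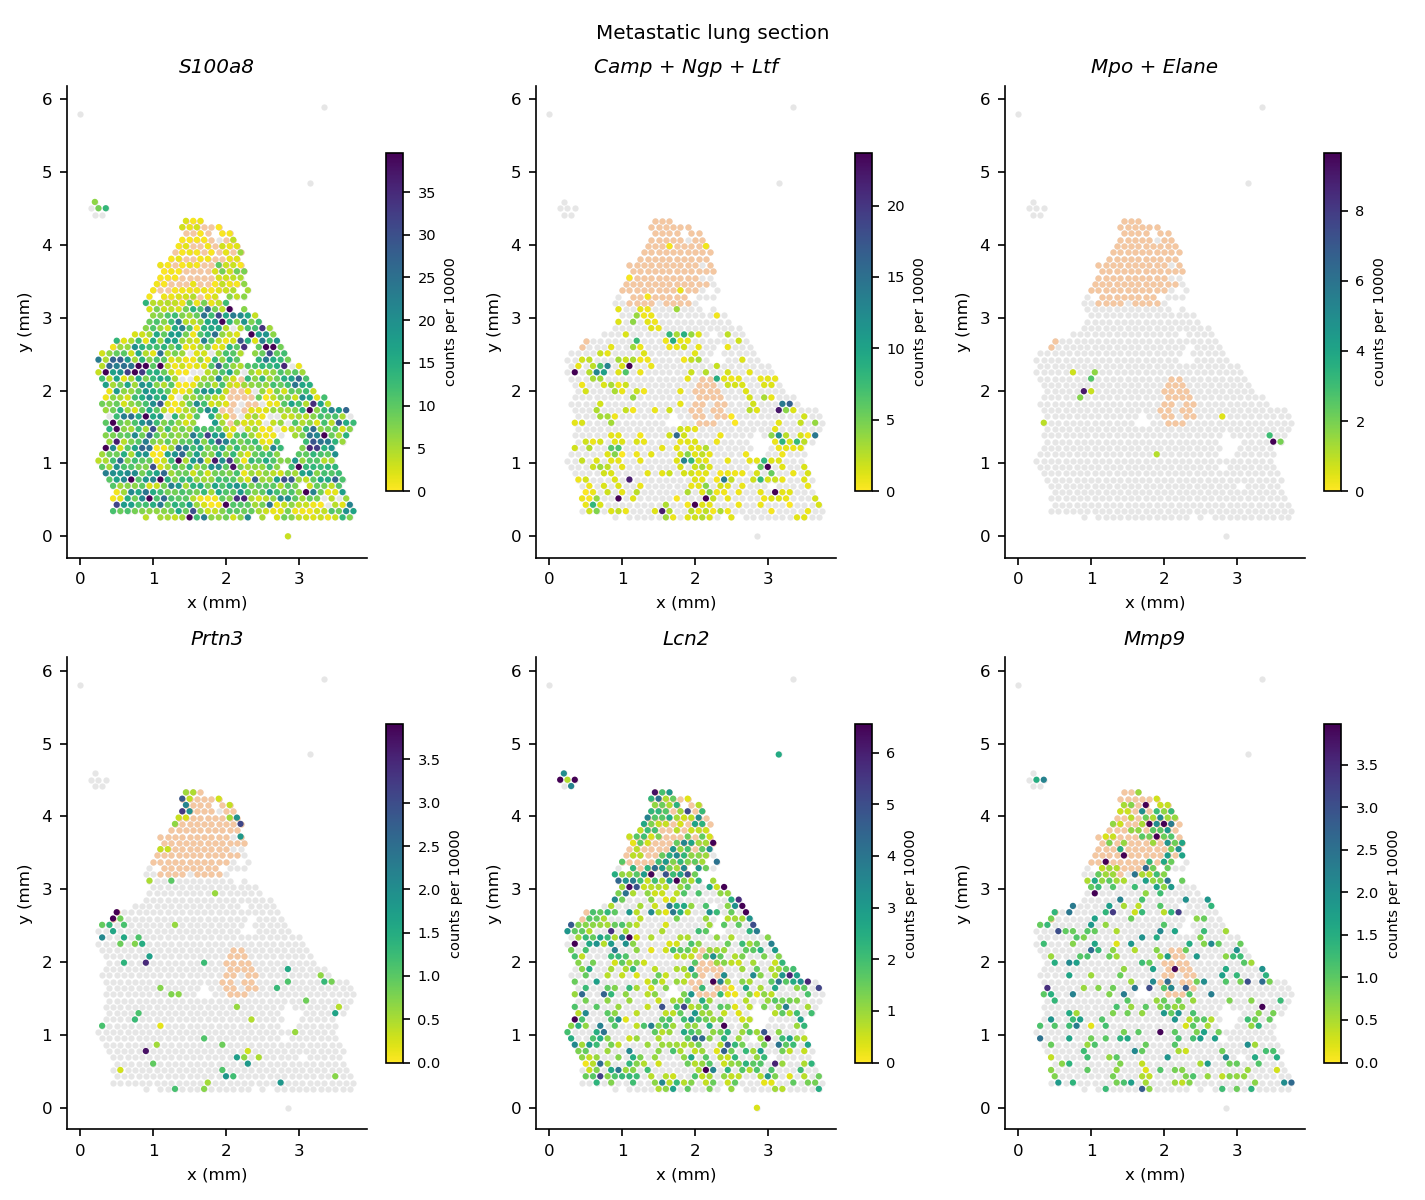
Spots of the metastatic section by position (mm), coloured by counts per 10000 (each scale ends at the 98th percentile of spots with a count); grey spots had no count and pale orange spots are core spots with no count. S100a8 filled the lung outside the core, Camp, Ngp and Ltf formed scattered foci there, Mpo and Elane lay mainly around 2 spots, and Prtn3 was counted at the edges of the core as well as in the lung.

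Prtn3 was 0.226 CP10k (0.171 to 0.294) in the core, 0.0566 (0.0244 to 0.112) in the margin, 0.0487 (0.0251 to 0.0850) in the intermediate zone and 0.0662 (0.0499 to 0.0862) in the far lung. Taken as a whole, the core was higher than each of the other zones, whose intervals overlapped each other. The core ratio over the far lung was 3.41 (2.31 to 5.04), and 2.35 (1.59 to 3.48) with abundant lung genes left out of the library size. Mpo and Elane had 0 counts in both core and margin. Against a floor of 3 counts, which is 0.0121 CP10k in the core and 0.0212 in the margin, Mpo was at least 3.38-fold and at least 1.93-fold lower there than in the far lung (0.0410). The exact intervals are wider than this floor and allow ratios up to 0.384 in the core and 0.673 in the margin. Without the 2 Mpo spots the interval of the core ratio reached 2.32, so a difference was then not detectable at this depth.

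Within the core, Prtn3 was patchy. The 73 inner core spots, surrounded by core on all 6 sides, had 10 counts (0.0789 CP10k, 0.0379 to 0.145) and the 80 outer core spots had 46 (0.380, 0.278 to 0.507). The inner core interval overlapped that of the far lung (0.0499 to 0.0862), so a higher level was shown for the outer core spots only. Both the largest metastasis (0.206, 0.151 to 0.274) and the other core spots together (0.463, 0.212 to 0.879) were above the far lung. The genes whose spot levels were most like those of Prtn3 in the metastatic section, among 8375 genes with at least 200 counts and over 1110 spots, were Cd5l (Pearson's r 0.56), Alox15 (0.53), Marco (0.48), Arg1 (0.47) and Fcna (0.44). Cd5l and Marco are scavenger receptor family genes of tissue macrophages, and Alox15 is a lipoxygenase gene of resident peritoneal macrophages. Prtn3 was taken alone here after its map was seen. For the summed primary stage the first 4 were the same, at 0.46, 0.44, 0.40 and 0.39, followed by Itgam (0.37). The points share 1 library and spot depth.

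In the 29 core spots with a Cd5l count, Prtn3 had 53 counts, or 0.817 CP10k (0.612 to 1.07), against 3 counts, or 0.0164 (0.00338 to 0.0480), in the other 124 core spots. The S100a8 intervals of these spots overlapped, 1.36 (1.09 to 1.67) and 1.24 (1.09 to 1.41), whereas S100a9 was lower with Cd5l, 1.53 (1.24 to 1.86) against 2.17 (1.96 to 2.40). Mpo and Elane had 0 counts in both. Outside the core, the 71 spots with Cd5l had 0.257 CP10k of Prtn3 (0.161 to 0.389) and the 886 without it 0.0468 (0.0351 to 0.0612). Cd5l was chosen for this split because of its correlation, so the split is a description. All 7 genes of the macrophage list were higher in the core than in the far lung, by 3.11-fold (Mrc1) to 15.6-fold (Marco). At least 2-fold higher there were 23.8% of 14157 genes. All 7 also had an interval above equality between the metastatic and the control section, by 1.30 to 7.31-fold, beside 20.2% of 16039 genes. Their part in the Prtn3 level was not tested. Per 100 S100a8 counts, Prtn3 was 17.8 in the core and 0.665 in the far lung.

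Camp and Ngp, which encode the cathelicidin antimicrobial peptide and neutrophilic granule protein, were the members with the clearest common pattern. Camp was 0.360 CP10k (0.329 to 0.392) in the metastatic and 0.0590 (0.0489 to 0.0706) in the control section, a ratio of 6.09 (4.99 to 7.49). Ngp was 0.303 (0.275 to 0.332) and 0.0625 (0.0521 to 0.0743), a ratio of 4.85 (3.97 to 5.95). Camp, Prtn3 and Ngp had the highest ratios of the 9 members, with intervals that overlapped each other.

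Their counts came from foci. In the metastatic section 39 spots had 5 or more Camp and Ngp counts together and held 64.7% of them, and in the control section 11 spots held 59.5%. Of the 39 spots, 28 were in the far lung, 10 in the intermediate zone, 1 in the margin and 0 in the core. S100a8 was also high in them, 30.1 CP10k against 7.37 in the other spots of the metastatic section, and 11.0 against 0.719 in the control section. The richest spot had 46 Camp, 25 Ngp and 6 Ltf counts at 917 µm from the core, and the next 27, 32 and 17 at 361 µm. Neither had a Mpo or Elane count, and among the 10 richest spots of each section none did. Only 12 metastatic and 16 control spots had such a count, so this does not show that the genes lay apart. Of the 36 metastatic Mpo counts, 32 lay in the 195 spots with Camp, which held 16.5% of all counts. The 2 spots rich in Mpo held 27 of these. In the control section 6 of 16 Mpo counts lay in spots with Camp (3.21% of all counts) and 0 in spots with Ngp.

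Camp and Ngp correlated across spots with r 0.63 in the metastatic (1110 spots) and 0.66 in the control section (1888 spots). Ltf joined them in the metastatic section (r 0.55 with Camp and 0.59 with Ngp) but less so in the control section (0.23 with both). Of the Ltf counts, 72.9% lay in the 195 metastatic spots that had Camp, which held 16.5% of all counts. In the control section the corresponding value was 9.69%, in 59 spots with 3.21% of all counts.

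**Figure D3:**
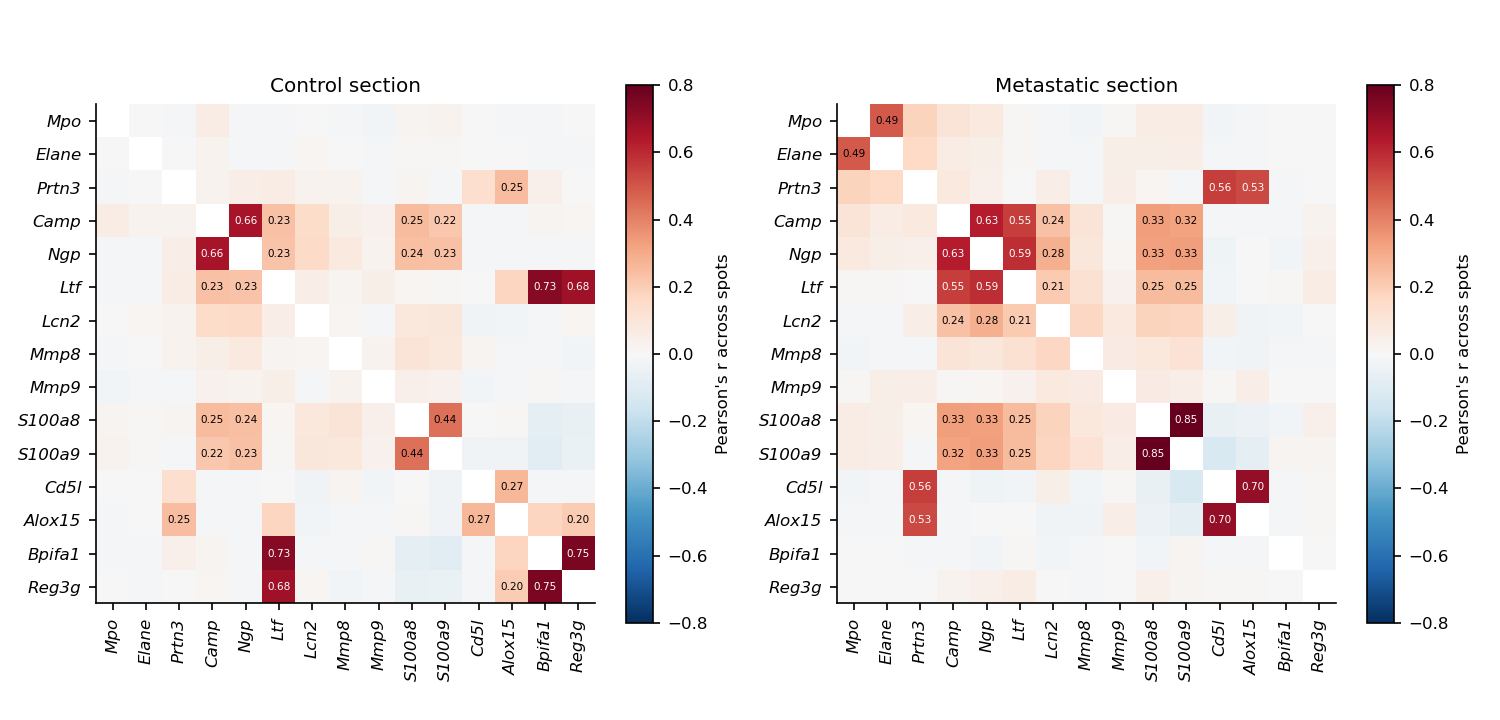
Pearson's r of log counts per 10000 between pairs of genes across the spots of the control (1888) and metastatic (1110) sections, printed where it reached 0.2; the points of each panel share 1 library. Camp and Ngp go together in both sections (0.66 and 0.63), Ltf goes with Bpifa1 in the control section (0.73) and with Ngp in the metastatic one (0.59), and Prtn3 goes with Cd5l in the metastatic one (0.56).

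By distance, Camp was 0.0202 CP10k (0.00656 to 0.0471) in the core, 0.120 (0.0701 to 0.193) in the margin, 0.499 (0.415 to 0.595) in the intermediate zone and 0.460 (0.415 to 0.509) in the far lung. Ngp was 0.00404 (0.000102 to 0.0225), 0.120 (0.0701 to 0.193), 0.426 (0.348 to 0.516) and 0.387 (0.345 to 0.431). Both were therefore nearly absent from the core and lower in the margin than beyond it, while the intermediate zone and far lung did not differ beyond the intervals. The margin ratio over the far lung was 0.261 (0.151 to 0.424) for Camp and 0.311 (0.179 to 0.506) for Ngp, both below that of S100a8 at 0.712 (0.666 to 0.760). Taken per 100 S100a8 counts, Camp and Ngp together were 1.90 in the core, 3.39 in the margin, 9.37 in the intermediate zone and 8.50 in the far lung. The margin ratio per S100a8 count was 0.399 (0.281 to 0.567). Beyond the margin the rings of 100 µm had no steady order. Camp was 0.767 CP10k at 300 to 400 µm, 0.283 at 500 to 600 µm and 1.10 at 900 to 1000 µm, and the first and last of these rings held the 2 richest spots.

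**Figure D4:**
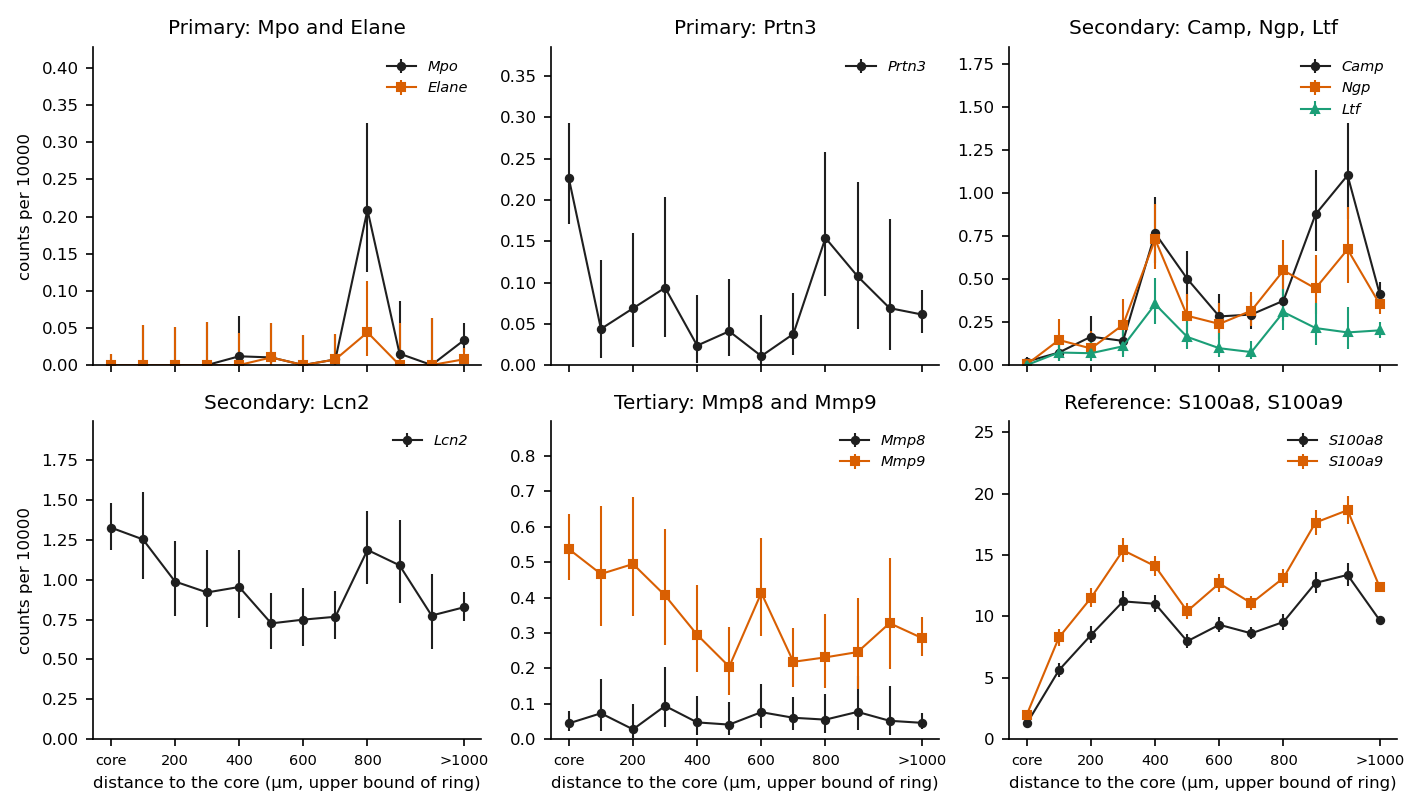
Level in counts per 10000 against distance to the tumor core in rings of 100 µm (points at the upper bound of each ring, the first point being the core and the last all spots beyond 1000 µm), with exact 95% counting intervals, in the metastatic section. S100a8, S100a9, Camp, Ngp and Ltf were lowest in the core, Lcn2 and Mmp9 were as high or higher there as farther out, and Mpo peaked in the ring that holds its richest spot.

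Ltf (lactotransferrin) was the 1 member without a higher level in the metastatic section, 0.146 CP10k (0.127 to 0.167) against 0.188 (0.170 to 0.208), a ratio of 0.777 (0.654 to 0.921). The value lay above equality instead when spots were thinned to 5000 counts (1.22, 0.918 to 1.62) or weighted equally (1.30). In the control section most Ltf lay in a single patch of spots together with Bpifa1. The genes most like it there were Bpifa1 (r 0.73), Reg3g (0.68), Bpifb1 (0.65), Tff2 (0.61) and Muc5b (0.56), which are genes of secretory airway epithelium and mucus. The 74 control spots with at least 5 counts of Bpifa1, Muc5b and Reg3g held 7.26% of all counts and 303 of the 382 Ltf counts (79.3%), at 2.05 CP10k (1.83 to 2.30) against 0.0419 (0.0332 to 0.0522) in the other spots.

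These airway spots were poor in neutrophil transcripts, with 0.129 CP10k of S100a8 against 0.840 elsewhere, and they held 4.17% of Camp and 2.36% of Ngp. The metastatic section had 3 such spots. With them left out of both sections, Ltf was 0.144 CP10k in the metastatic and 0.0419 in the control section, a ratio of 3.45 (2.65 to 4.52), while Camp (5.89) and Ngp (4.62) kept ratios close to those over all spots. In the metastatic section Ltf followed Camp and Ngp by distance: 0 counts in the core, at least 15.0-fold lower than the far lung against the floor of 3 counts and with an exact interval of the ratio up to 0.0829, then 0.0708 CP10k (0.0339 to 0.130) in the margin, 0.215 (0.161 to 0.281) and 0.182 (0.154 to 0.213).

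**Figure D5:**
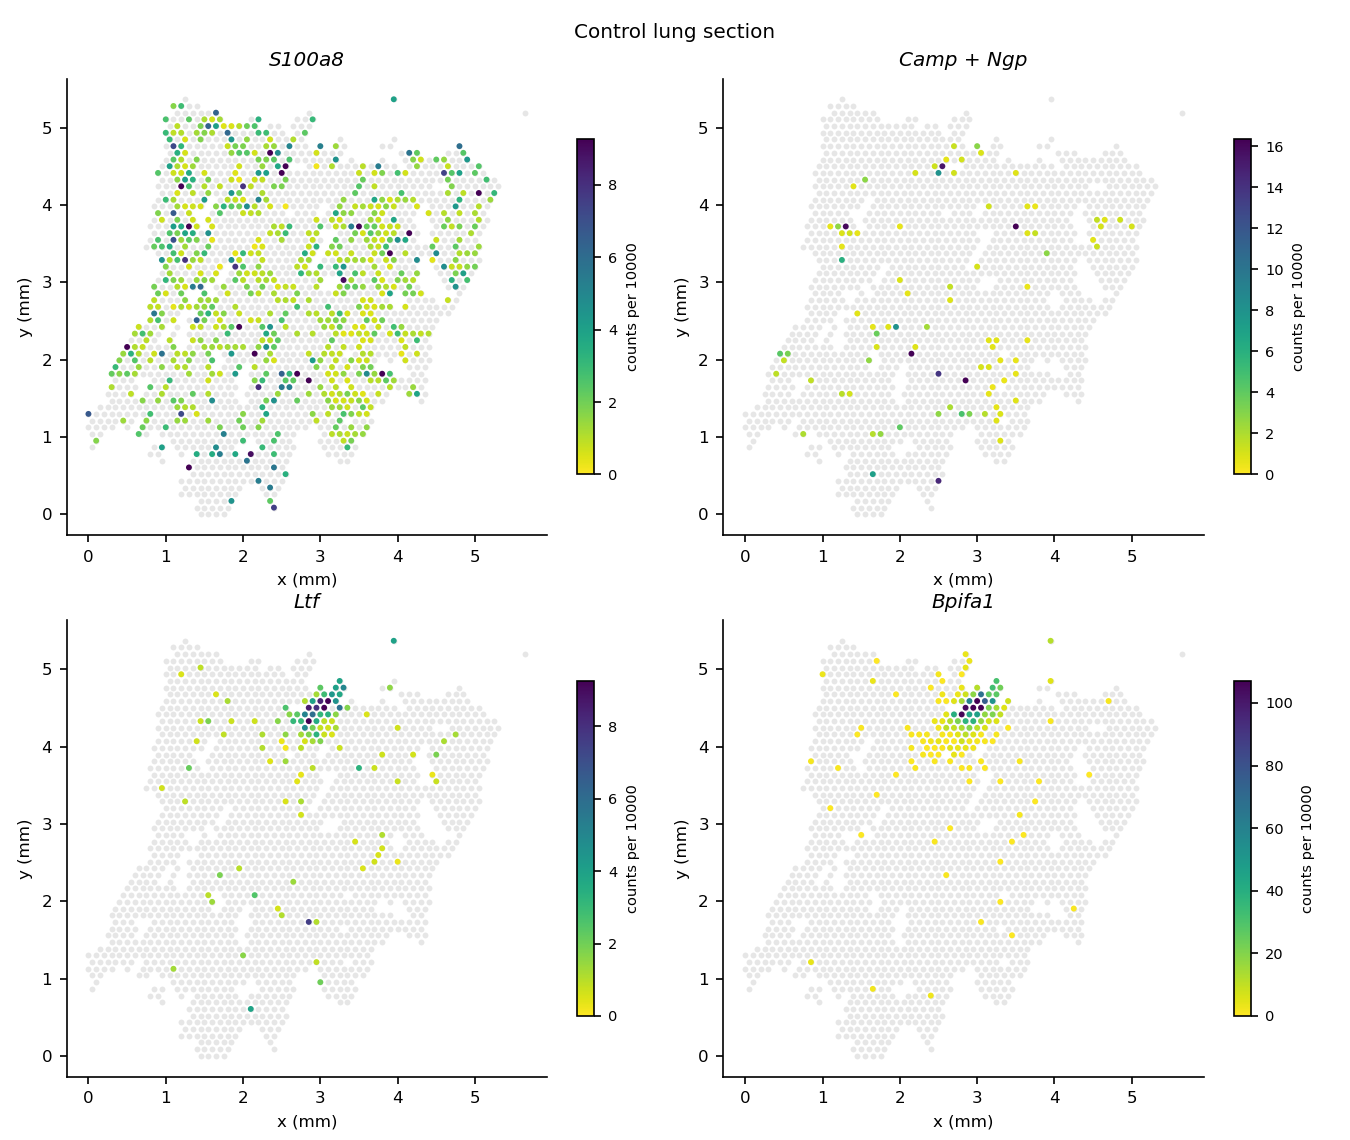
Spots of the control section by position (mm), coloured by counts per 10000 (each scale ends at the 98th percentile of spots with a count); grey spots had no count. Ltf lay mainly in the patch that Bpifa1 marks, the 74 secretory airway spots holding 303 of its 382 counts, while Camp and Ngp formed small foci elsewhere.

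Lcn2 (lipocalin 2, an iron-scavenging protein that epithelial and cancer cells also make) had the most counts of the members. It was 0.967 CP10k (0.917 to 1.02) in the metastatic and 0.494 (0.464 to 0.526) in the control section, a ratio of 1.96 (1.80 to 2.12). It was counted in 57.4% of metastatic and 35.8% of control spots, and the 10 richest spots held only 8.75% and 6.37% of its counts, against 35.9% and 54.2% for Camp. Lcn2 made up 1417 of the 2602 secondary granule counts of the metastatic section, so the summed stage, with a ratio of 2.21 (2.08 to 2.35), hid the higher ratios of Camp and Ngp.

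Lcn2 was 1.33 CP10k (1.19 to 1.48) in the core, 1.12 (0.951 to 1.31) in the margin, 0.856 (0.744 to 0.979) in the intermediate zone and 0.866 (0.804 to 0.932) in the far lung. The core ratio over the far lung was 1.53 (1.34 to 1.75), but 1.06 (0.925 to 1.21) with abundant lung genes left out of the library size. Those genes held 2.15% of the counts in the core and 32.6% in the far lung. The cancer list was 7.36 CP10k in the core and 2.91 in the far lung, an order set by construction because the core was chosen by this list. The part of the cancer list in the Lcn2 level was not tested. The margin of the largest metastasis had 1.90 CP10k (1.53 to 2.33) and that of the other core spots 0.711 (0.550 to 0.905), so the margin level was not common to the metastases. Per 100 S100a8 counts, Lcn2 was 104 in the core and 8.70 in the far lung. Its spot levels in the control section were most like those of Lyz1 (r 0.19), Lyz2 (0.19), Sftpb (0.18), Slc34a2 (0.18) and Sftpc (0.16). Sftpb and Sftpc are surfactant protein genes, but these values are too weak to place Lcn2.

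Mmp9 (gelatinase B) was 0.346 CP10k (0.316 to 0.377) in the metastatic and 0.106 (0.0921 to 0.121) in the control section, a ratio of 3.27 (2.78 to 3.85). Mmp8 (neutrophil collagenase) had 78 and 34 counts, or 0.0532 (0.0421 to 0.0664) and 0.0167 (0.0116 to 0.0234), with a similar ratio of 3.18 (2.10 to 4.91). Both were widely scattered: no spot had more than 3 Mmp8 or 12 Mmp9 counts.

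By distance, only Mmp9 had levels that differed beyond their intervals. Mmp9 was 0.537 CP10k (0.450 to 0.636) in the core, 0.481 (0.374 to 0.610) in the margin, 0.288 (0.225 to 0.363) in the intermediate zone and 0.283 (0.248 to 0.322) in the far lung. Core and margin did not differ beyond their intervals, and both were above the lung beyond them, by 1.90-fold (1.52 to 2.36) and 1.70-fold (1.28 to 2.24). With abundant lung genes left out of the library size these ratios were 1.31 (1.05 to 1.62) and 1.42 (1.07 to 1.87). The margin of the largest metastasis had 0.680 CP10k of Mmp9 (0.468 to 0.955), while that of the other core spots had 0.377 (0.263 to 0.524), which overlapped the far lung. Mmp8 was 0.0444 (0.0222 to 0.0795), 0.0495 (0.0199 to 0.102), 0.0568 (0.0310 to 0.0953) and 0.0554 (0.0406 to 0.0739) from core to far lung, and these levels overlapped. The macrophage list had the same order as Mmp9, with 14.5, 7.73, 4.39 and 3.23 CP10k from core to far lung. Within the core, Marco of that list had the opposite order to Mmp9. The 29 core spots with a Cd5l count had 5.16 CP10k of Marco and 0.308 (0.188 to 0.476) of Mmp9. The other 124 core spots had 0.0711 and 0.618 (0.510 to 0.743). The part of the macrophage list in the Mmp9 level was not tested. A difference of Mmp8 between zones was not detectable at this depth, where the core held 11 counts. Its ratios over the far lung were 0.802 (0.374 to 1.57) for the core and 0.894 (0.341 to 1.99) for the margin. Both intervals overlapped those of Mmp9, so the 2 genes were not shown to differ by distance.

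Per S100a8 count, every stage had fewer counts in the metastatic than in the control section. This order is not particular to the stages. It holds for any gene whose ratio between sections was below the 10.4 of S100a8. Over 16039 genes the median ratio was 0.941, and 5.49% were at least 2-fold higher. Not all of these counts were shown to be of neutrophils. In the control section 303 of the 1634 secondary counts were Ltf in airway spots, and 1005 were Lcn2, which was not placed. The genes most like Mmp9 there were Dcn and Pi16, which are fibroblast genes, but these values (r 0.29 and 0.27) are weak too. Per 100 S100a8 counts, the primary genes were 3.43 in the control and 1.46 in the metastatic section, a ratio of 0.427 (0.314 to 0.580). The secondary genes were 102 and 21.7 (0.212, 0.196 to 0.230), and the tertiary genes 15.5 and 4.87 (0.313, 0.268 to 0.366). Of the single members, Camp was closest to the reference at 0.585 (0.477 to 0.719). Ltf was at 0.0747 (0.0627 to 0.0890), but at 0.353 (0.271 to 0.460) without the secretory airway spots, where Lcn2 had the lowest value, 0.195 (0.177 to 0.215). Camp and Ngp together were 15.4 and 8.08 (0.524, 0.451 to 0.608). S100a9, by comparison, was 144 and 133 (0.925, 0.864 to 0.990).

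Spots of the metastatic section outside the core were also ordered by their S100a9 share and split into 4 bins of like size. The order and the levels share the same spot totals, in which abundant lung genes held 32.6% of the far lung counts. A rise over the bins is thus a description and does not show that a member follows neutrophil transcripts. From the lowest to the highest bin S100a8 went from 2.42 to 21.9 CP10k. Camp went from 0.0467 to 1.40, Ngp from 0.0420 to 1.24 and Ltf from 0.0420 to 0.529. Lcn2 went from 0.425 to 1.67, Mmp9 from 0.184 to 0.533, Mmp8 from 0.0140 to 0.107 and Prtn3 from 0.0350 to 0.144. In the control section 944 of the 1888 spots had no S100a9 count, so only spots with and without one were compared. Camp was 0.0978 CP10k (0.0800 to 0.118) with S100a9 and 0.0156 (0.00875 to 0.0258) without, and Ngp 0.108 (0.0893 to 0.130) and 0.0115 (0.00573 to 0.0205). Lcn2 differed less, 0.553 (0.510 to 0.599) with and 0.429 (0.388 to 0.472) without. Ltf had the opposite order, 0.0913 (0.0741 to 0.111) with and 0.296 (0.263 to 0.333) without. Mmp9 did not differ beyond its intervals, 0.103 (0.0850 to 0.124) and 0.108 (0.0886 to 0.131).

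Of the other lists, genes are counted here where the interval of the ratio between sections lay above or below equality, which held for 20.2% and 30.6% of the 16039 genes with at least 10 counts. Of the 9 mature neutrophil genes, 7 were above and 2 (G0s2 and Hdc) below equality in the metastatic section, with a median ratio of 5.33. The highest were Stfa2l1 (16.4, 9.33 to 31.6), a stefin gene, Cxcr2 (9.52, 6.72 to 13.8), the chemokine receptor of mature neutrophils, and Retnlg (7.42, 6.16 to 8.98), a resistin-like gene. Of 4 other tertiary granule genes all 4 were above equality, with a median of 3.22, led by Itgam (4.51, 3.70 to 5.54), the CD11b integrin chain, which macrophages also carry. Their sum was 3.53 times as high in the core as in the far lung (3.07 to 4.05), while S100a8 was 0.128 times. The far lung alone was 1.89 times the control section for this sum (1.65 to 2.16). Of 6 other secondary granule genes with 10 counts, 5 were above equality, with a median of 1.57. Among those with at least 50 counts the highest was Slpi (3.65, 3.42 to 3.91), a protease inhibitor that epithelium also secretes. The intervals of Stfa2l1 and Cxcr2 included the ratio of S100a8.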

How the data were processed

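Visium libraries of 1 metastatic and 1 control lung section were sequenced by the authors. The deposited matrices hold unnormalized UMI counts for each gene in each spot, made by the authors with Space Ranger 1.3.1 on mm10 per the submitters' processing notes, and were used without further filters. Depth per spot had medians of 9643.5 (control) and 11334.5 (metastatic), and 858 of 4992 spot barcodes occurred in both sections.

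Counts were summed per section or zone and divided by all counts there, times 10000, with exact Poisson intervals (95%) for levels, exact binomial intervals for ratios and log-normal intervals for ratios per S100a8 count. A count of 0 was set to a floor of 3. The core came from k-means (5 clusters, 20 principal components, 2000 variable genes) with 1 lone spot dropped, and is not the study's own map. Spots are 100 µm apart, and 42 spots between 200 and 300 µm from the core were counted as intermediate. Background shares used genes with at least 10 counts over both groups and a 2-fold difference. Clustering used scikit-learn 1.9.0, the threshold scikit-image 0.26.0, intervals scipy 1.17.1 and figures matplotlib 3.10.9, in Python 3.11.15 with pandas 2.3.3 and numpy 2.4.6, and the scripts were tested on simulated data.

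The members and lists were chosen with earlier results of these data known. Named were the 9 members, S100a8 and S100a9, up to 3 genes of each other list with the highest ratio among those with at least 50 counts, and the 5 genes most correlated with a stage among those with at least 200 counts. Others were named after their values were seen. Alternatives were thinning to 5000 counts, means over spots, other library sizes, cores, lesions, stage members and spots left out.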

Additional observations from a re-analysis of the deposited data

How the results depend on the processing

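No paired analysis was possible because each condition had 1 section. Of 78 alternatives, 57 stayed within the counting interval of the value reported, 19 moved beyond it in the same direction and 2 reversed; the cause was not tested unless the alternative's construction gives it. For the secondary genes, the ratio between sections (2.21) was 2.55 with spots thinned, 2.56 as a mean over spots, 2.68 without airway-rich spots, 2.63 without secretory airway spots, 2.36 for far lung only and 2.61 without Lcn2. Per S100a8 count (0.212) it was 0.261 without airway-rich spots, 0.269 without secretory airway spots, 0.187 for far lung only and 0.251 without Lcn2. For the tertiary genes far lung only gave 2.76 between sections, and per S100a8 count 0.219, or 0.257 thinned. For the primary genes leaving out Prtn3 gave 3.12 between sections and 0.300 per S100a8 count.

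Margin over far lung reversed for the primary genes, to 2.23, when zones were measured from the inner core, whose margin by construction takes in outer core spots with Prtn3. It reversed for the secondary genes (0.754) to 1.14 (0.929 to 1.39, which includes equality) at the largest metastasis, against 0.552 around the other core spots. Camp, Ngp and Ltf together did not reverse. They had 0.268 CP10k (0.143 to 0.458) in the margin of the largest metastasis and 0.334 (0.227 to 0.474) in the other margin, against 1.03 in the far lung. With a library size free of the most abundant genes, margin over far lung was 0.631 for the secondary genes. For the tertiary genes (1.57) it was 2.13 at the largest metastasis, 1.27 (0.891 to 1.78) around the other core spots, which includes equality, and 1.02 with the core set by a threshold on the score. Leaving out the 2 spots with the most Mpo, or the secretory airway spots, taking the inner core and leaving out Prtn3 were chosen after seeing the data. With a minimum of 50 counts in place of 10, genes at least 2-fold higher between sections were 573 rather than 880, lower 573 rather than 1127, core lower 1903 rather than 2863, margin higher 595 rather than 1303 and margin lower 160 rather than 613. Counts under 40 for Mpo and Elane limited their zones to bounds.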

Other observations

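The lists of other marrow lineages had lower ratios between sections than Camp and Ngp (6.09 and 4.85). Over all genes with at least 10 counts, 20.2% had an interval above and 30.6% one below equality. Of 5 megakaryocyte genes, 1 had an interval above equality in the metastatic section, Pf4 (platelet factor 4) with a ratio of 1.17 (1.10 to 1.25), and 2 had one below it, with a median of 0.758. Of 6 erythroid progenitor genes, 5 had 10 counts, of which Tfrc, the transferrin receptor gene, was above equality at 1.23 (1.10 to 1.37) and Epor, the erythropoietin receptor gene, below it at 0.758 (0.572 to 0.999). The median of these 5 was 1.23, and the summed erythroid list had a ratio of 1.13 (1.03 to 1.25). Tfrc made up 602 of the 719 counts of this list in the metastatic section, so the sum was mostly that of Tfrc. Klf1 had 6 counts in each section, and its interval (0.371 to 5.19) included the ratio of Ngp. Red blood cell genes were above equality for 1 and below it for 3 of 4, airway genes for 2 and 5 of 7, and alveolar genes for 1 and 7 of 8. Of 6 cancer genes with 10 counts, 3 were above and 3 below equality.

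Mature neutrophil genes had 1.22 CP10k in the core, 4.26 in the margin, 4.29 in the intermediate zone and 4.18 in the far lung. The margin level of this summed list was within the counting error of the far lung, at a ratio of 1.02 (0.932 to 1.11). The margin ratio of Camp and Ngp together was 0.284 (0.195 to 0.401). The difference between these 2 margin ratios has no replicate check. Of the 5436 counts of the list in the section, 1186 were G0s2 and 716 Hdc, both lower in the metastatic section (0.753 and 0.786). The sum is thus not a measure of mature neutrophils alone, and no margin value is given for its single genes.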
